A study of Homo sapiens with 12 samples.

Results

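NFE2L2, BACH1 and 7 genes of the NRF2 and BACH1 antioxidant pathway (NQO1, GCLM, GCLC, TXNRD1, SRXN1, ME1 and OSGIN1) were followed through RNA-seq counts of K562 cells, a human erythroleukaemia line. The 9 genes were chosen by symbol. All 9 were among the 28278 genes of the table, and all 9 were among the 15805 that passed the filter on low counts. There were 4 groups of 3 libraries: wild-type (WT) cells left untreated, WT cells given sodium butyrate, cells in which HRG1 (SLC48A1, a heme transporter) was knocked out (KO) and left untreated, and KO cells given sodium butyrate. The first dose of 0.75 mM was added 24 h after plating, a second followed 48 h later, and cells were taken 6 h after the second dose. The design text dates the samples to day 8 of differentiation, and every group shares the K562 background. How many KO clones there were, how the gene was disrupted and whether replicates were separate cultures are not given in the sources used here, so p-values measure only the spread between these libraries, which may be technical.

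NRF2, the product of NFE2L2, is a transcription factor that KEAP1 holds at a low level by directing it to degradation. Oxidants and electrophiles release it, and with a small MAF protein it then binds antioxidant response elements and raises genes of glutathione synthesis, thioredoxin reduction, NADPH supply and quinone detoxification. BACH1 binds the same kind of element with the same small MAF partners and represses, and heme removes it from DNA and marks it for degradation. In erythroid cells, which make heme in quantity, this repressor links heme to the heme-handling and antioxidant genes. Much of this control acts on the NRF2 and BACH1 proteins, which transcript counts do not measure.

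Matches to the element were looked for in RefSeq promoters (GRCh38.p14, 250 bases before and 50 after each transcript start), on both strands. All 9 genes had a window there, 13 windows in all. The core TGACNNNGC was present for 3 of the 9 genes, against 16.1% of 27305 genes (13.3% of 35116 windows). The longer small MAF consensus TGANTCAGC was present for 2 of the 9 genes, against 1.66% of genes (1.36% of windows). Either motif was present for 4 genes, GCLM, ME1, TXNRD1 and OSGIN1, against 16.8% of genes. A match is a description of letters, not a measured binding site. The 250 bases before the start are printed for 3 of these genes because their counts passed the test between genotypes, with the match in capitals.
GCLM: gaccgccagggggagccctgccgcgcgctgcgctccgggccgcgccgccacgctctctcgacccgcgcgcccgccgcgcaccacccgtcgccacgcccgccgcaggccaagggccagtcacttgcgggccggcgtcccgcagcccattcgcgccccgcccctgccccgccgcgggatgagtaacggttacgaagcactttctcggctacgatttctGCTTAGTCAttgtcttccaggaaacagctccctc
ME1: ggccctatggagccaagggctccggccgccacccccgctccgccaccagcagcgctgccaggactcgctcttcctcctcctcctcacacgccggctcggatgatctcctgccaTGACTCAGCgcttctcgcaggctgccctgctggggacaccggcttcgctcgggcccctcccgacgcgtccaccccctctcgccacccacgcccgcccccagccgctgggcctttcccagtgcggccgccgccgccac
OSGIN1: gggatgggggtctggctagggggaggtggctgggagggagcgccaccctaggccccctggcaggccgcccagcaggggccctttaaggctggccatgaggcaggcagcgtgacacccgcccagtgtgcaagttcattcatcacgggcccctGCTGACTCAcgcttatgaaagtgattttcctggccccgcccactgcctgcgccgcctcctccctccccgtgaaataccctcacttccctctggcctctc
The GCLM stretch is chr1:93909431-93909680 on the minus strand, and its capitals, 34 to 26 bases before the start, read TGACTAAGC on the other strand and match the core. The ME1 stretch is chr6:83431052-83431301 on the minus strand. Its capitals, 137 to 129 bases before the start, match the core and the longer consensus at the same 9 bases, and a further core match lay after the start. The OSGIN1 stretch is chr16:83952990-83953239 on the plus strand, and its capitals, 99 to 91 bases before the start, read TGAGTCAGC on the other strand and match the longer consensus alone. TXNRD1 had core matches in both of its windows, one of them reading TGACAAAGC on the other strand, 102 to 94 bases before its start. These windows held no match for NFE2L2, BACH1, NQO1, GCLC or SRXN1.

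Libraries held 19963594 to 30348538 counts. SLC48A1 stood at 58.9 to 83.8 CPM in the 6 WT libraries and 2.94 to 10.1 CPM in the 6 KO libraries, in the direction of the labels. CPM is a count relative to the library total after TMM scaling, an adjustment for library composition. Erythroid genes were present throughout, with GATA1 at 3356 to 11539 counts and KLF1 at 1045 to 6355 counts, whereas the lymphoid MS4A1 and the megakaryocytic PF4 were at 0 in all 12 libraries. Marker sums did move with the groups. The 4 myeloid genes summed to 0.325 to 2.62 CPM in untreated WT, 18.7 to 77.8 in untreated KO, 3.01 to 8.80 in butyrate-treated WT and 40.4 to 109.7 in butyrate-treated KO, with ITGAM at 2 to 3340 counts, CSF1R at 0 to 129, CD14 at 0 to 21 and MPO at 0 to 13 over all libraries. ITGAM made up most of the KO sums and was higher in KO without and with butyrate (log2 5.23 and 3.59, adjusted p = 0.00077 and 0.0057). The 8 erythroid genes summed to 6975 to 21295 CPM in butyrate-treated WT and to 2657 to 5676 CPM over the other groups, and the 4 megakaryocytic genes to 78.1 to 226.6 CPM with butyrate and 14.8 to 60.3 without. The 4 lymphoid genes summed to 4.07 to 13.1 CPM over all groups. The libraries numbered 1 also had the largest share of counts on one ribosomal RNA gene within their groups, 2.30% to 5.63% against 0.673% to 2.86% for the others. The part of these shifts in the results that follow was not tested. In such bulk samples, fewer cells of a type and less RNA per cell cannot be told apart.

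Knockout cells without butyrate held fewer BACH1, GCLM and OSGIN1 transcripts and more GCLC transcripts than WT cells. These 4 of the 9 genes passed the edgeR quasi-likelihood test at an adjusted p under 0.05, 3 lower and 1 higher, where 22.6% of all tested genes passed (10.9% lower and 11.7% higher). For 6 of the 9 genes no KO value fell among the WT values, which held for 42.3% of all genes. With the replicate number as a block, 4 of 9 passed against 33.0%. The median log2 difference of the 9 genes was -0.38, and of all tested genes 0.02. With butyrate in both genotypes, BACH1 and GCLM were again lower and ME1 was higher, 3 of 9 genes against a background of 19.0% (8.89% lower and 10.1% higher). Groups were apart for 2 of the 9, against 33.9% of all genes, and with the block 3 of 9 passed against 29.2%. The median was then -0.37, against -0.00 over all genes.

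BACH1 (chr21:29194071-29630751, plus strand, GRCh38), the heme-sensing repressor, stood at 81.1, 77.3 and 92.2 CPM in the untreated WT libraries and at 45.1, 49.2 and 48.1 in the untreated KO libraries. With butyrate it stood at 94.0, 65.7 and 76.1 CPM in WT and 49.5, 44.4 and 37.8 in KO. Every KO library lay below every WT library. The difference was 1.76-fold without butyrate (log2 -0.82, SE 0.18, adjusted p = 0.0064 by edgeR) and 1.79-fold with it (log2 -0.84, SE 0.18, adjusted p = 0.0065). Both passed with any one library left out. The exact permutation p was 0.1 in each case, the smallest that 3 against 3 libraries allow, as it was wherever 2 groups did not overlap. The 38 tested genes within 5 Mb of BACH1 had a median log2 difference of -0.45 without butyrate, 5 of them lower and 0 higher by the test, and the 147 genes of chromosome 21 a median of -0.33. With butyrate these medians were -0.42 and -0.35. The part of these neighbourhood values in the BACH1 difference was not tested.

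NFE2L2 (chr2:177227595-177392697, minus strand), the NRF2 gene, did not pass between genotypes. It stood at 71.8, 104.5 and 72.3 CPM in untreated WT and 57.5, 75.6 and 57.7 in untreated KO, and the groups overlapped (log2 -0.38, 95% interval -1.10 to 0.33, adjusted p = 0.46). With butyrate the WT libraries stood at 108.4, 44.5 and 47.4 CPM and the KO libraries at 56.5, 41.1 and 33.7 (log2 -0.61, 95% interval -1.33 to 0.11, adjusted p = 0.23). The treated WT library numbered 1 stood well above the other two. KO was below WT in each of the 3 same-numbered pairs under both treatments.

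The subunits of glutamate-cysteine ligase, the rate-limiting enzyme of glutathione synthesis, differed in opposite directions between untreated genotypes. GCLM (chr1:93885205-93909456, minus strand), the modifier subunit, stood at 115.0, 110.4 and 116.6 CPM in untreated WT and at 59.1, 71.7 and 55.6 in untreated KO, with no overlap. It was 1.83-fold lower in KO (log2 -0.88, SE 0.20, adjusted p = 0.0077), with any one library left out as well. With butyrate it stood at 102.8, 64.8 and 85.3 CPM in WT and 54.9, 52.1 and 40.5 in KO, 1.71-fold lower (log2 -0.78, SE 0.20, adjusted p = 0.017). That call was lost without the butyrate-treated KO library numbered 3 (adjusted p = 0.064) and when the butyrate groups alone were fitted (adjusted p = 0.078). The 37 tested neighbours of GCLM within 5 Mb had a median of 0.21 without butyrate and 0.30 with it. Any part of these local values in the GCLM difference was not tested.

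GCLC (chr6:53497341-53616970, minus strand), the catalytic subunit, stood at 17.4, 17.9 and 17.2 CPM in untreated WT and at 42.6, 37.6 and 31.8 in untreated KO. It was 2.13-fold higher in KO (log2 1.09, SE 0.20, adjusted p = 0.0018), with any one library left out as well, and its groups did not overlap. With butyrate the levels met, at 27.0, 24.3 and 24.7 CPM in WT and 34.2, 23.9 and 28.5 in KO (log2 0.19, 95% interval -0.24 to 0.62, adjusted p = 0.57). The 30 tested genes within 5 Mb of GCLC had a median of 0.51 without butyrate, with 9 higher and 2 lower by the test. With butyrate their median was 0.38, with 8 higher and 2 lower. The part of these local values in the GCLC difference was not tested.

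Taking both subunits within one library removes any scaling between libraries. The ratio of GCLM to GCLC, each per exon length, was 10.6, 9.86 and 10.8 in the untreated WT libraries and 2.21, 3.04 and 2.79 in the untreated KO libraries. With butyrate it was 6.07, 4.26 and 5.52 in WT and 2.56, 3.47 and 2.26 in KO. The 4 groups therefore fell into 3 separate ranges, with the KO groups overlapping each other. The means were 10.4 ± 0.483, 5.28 ± 0.929, 2.68 ± 0.424 and 2.77 ± 0.631 (SD, n = 3). The log2 ratio differed by -1.97 between untreated genotypes and by -0.99 between treated and untreated WT (exact permutation p = 0.1 each), and by 0.03 between treated and untreated KO (exact permutation p = 0.9).

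TXNRD1 and SRXN1 did not pass between genotypes. TXNRD1 (chr12:104215779-104350305, plus strand), the cytosolic thioredoxin reductase, stood at 266.0, 201.0 and 273.9 CPM in untreated WT and 197.9, 178.4 and 145.3 in untreated KO. These groups did not overlap, but the difference of log2 -0.51 (SE 0.21) had an adjusted p of 0.11. With butyrate the values were 200.8, 162.6 and 222.9 CPM in WT and 161.4, 171.8 and 120.1 in KO (log2 -0.37, SE 0.21, adjusted p = 0.26). SRXN1 (chr20:646615-653370, minus strand), sulfiredoxin, which restores over-oxidized peroxiredoxins, stood at 31.7, 28.4 and 33.1 CPM in untreated WT and 25.3, 31.3 and 28.02 in untreated KO (log2 -0.14, SE 0.26, adjusted p = 0.75). With butyrate it stood at 51.8, 24.1 and 27.3 CPM in WT and 39.0, 48.2 and 43.1 in KO (log2 0.34, SE 0.26, adjusted p = 0.43). One WT library stood above all KO libraries and the other two below them. Without that library, the butyrate-treated WT numbered 1, the difference was log2 0.75 with an adjusted p of 0.021. Tested genes within 5 Mb of SRXN1, 63 in all, had a median of 0.51 without butyrate and 0.62 with it. Any part of these local values in the SRXN1 values was not tested. SRXN1 shares 85.0% of its exon bases with another GENCODE gene on its strand that was not a row of the table, so its counts depend on how shared reads were assigned. The largest overlap with a single gene was 17.7% for NQO1, with an antisense gene, 17.6% for NFE2L2, 13.9% for OSGIN1, 6.12% for GCLC and 3.91% for BACH1, and of these genes the one at BACH1 was a row of the table.

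ME1 (chr6:83210389-83431071, minus strand), cytosolic malic enzyme, which makes NADPH, stood at 28.2, 23.2 and 22.6 CPM in untreated WT and 28.4, 40.0 and 35.4 in untreated KO (log2 0.49, SE 0.35, adjusted p = 0.35). With butyrate it stood at 13.3, 22.1 and 20.8 CPM in WT and 21.6, 65.6 and 32.5 in KO. The KO library numbered 2 was far above the rest and the KO library numbered 1 lay between WT libraries. The difference of 2.13-fold just passed (log2 1.09, SE 0.35, adjusted p = 0.048; 0.019 with the replicate number as a block). It was lost when any library but the KO one numbered 1 was left out, and when the butyrate groups alone were fitted (adjusted p = 0.16). The adjusted p was 0.12, 0.078 and 0.092 without the WT library numbered 1, 2 and 3, 0.061 without the KO library numbered 3 and 0.30, at log2 0.50, without the KO library numbered 2.

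NQO1 (chr16:69706996-69726951, minus strand), a quinone reductase and a standard NRF2 readout, did not pass between genotypes. It stood at 101.7, 42.5 and 42.5 CPM in untreated WT and 81.6, 43.6 and 31.3 in untreated KO (log2 -0.26, 95% interval -1.36 to 0.85, adjusted p = 0.77). With butyrate the values were 32.7, 13.9 and 12.9 CPM in WT and 27.3, 10.3 and 11.9 in KO (log2 -0.27, 95% interval -1.39 to 0.85, adjusted p = 0.79). The library numbered 1 was the highest of each group. Tested genes within 5 Mb of NQO1, 115 in all, had a median of 0.36 without butyrate and 0.40 with it. Any part of these local values in the NQO1 values was not tested.

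OSGIN1 (chr16:83948282-83966332, plus strand), an oxidative stress-induced growth inhibitor, was the least abundant of the genes and had the largest fitted difference among them. It held 60, 105 and 377 counts in untreated WT (3.25, 4.87 and 12.7 CPM) and 2, 12 and 49 counts in untreated KO (0.107, 0.571 and 1.64 CPM). The groups did not overlap, and KO was 8.72-fold lower (log2 -3.12, SE 0.98, adjusted p = 0.037; 0.00018 with the replicate number as a block). The call was lost without the WT library numbered 2 or 3 (adjusted p = 0.056 and 0.15) and without the KO library numbered 1 or 2 (0.10 and 0.12), with fitted differences of -2.37 to -4.35 over all 6 omissions. With butyrate it held 18, 109 and 246 counts in WT and 13, 72 and 104 in KO (log2 -1.08, 95% interval -3.05 to 0.89, adjusted p = 0.47). Within each group the library numbered 3 was the highest and the library numbered 1 the lowest.

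**Figure D1:**
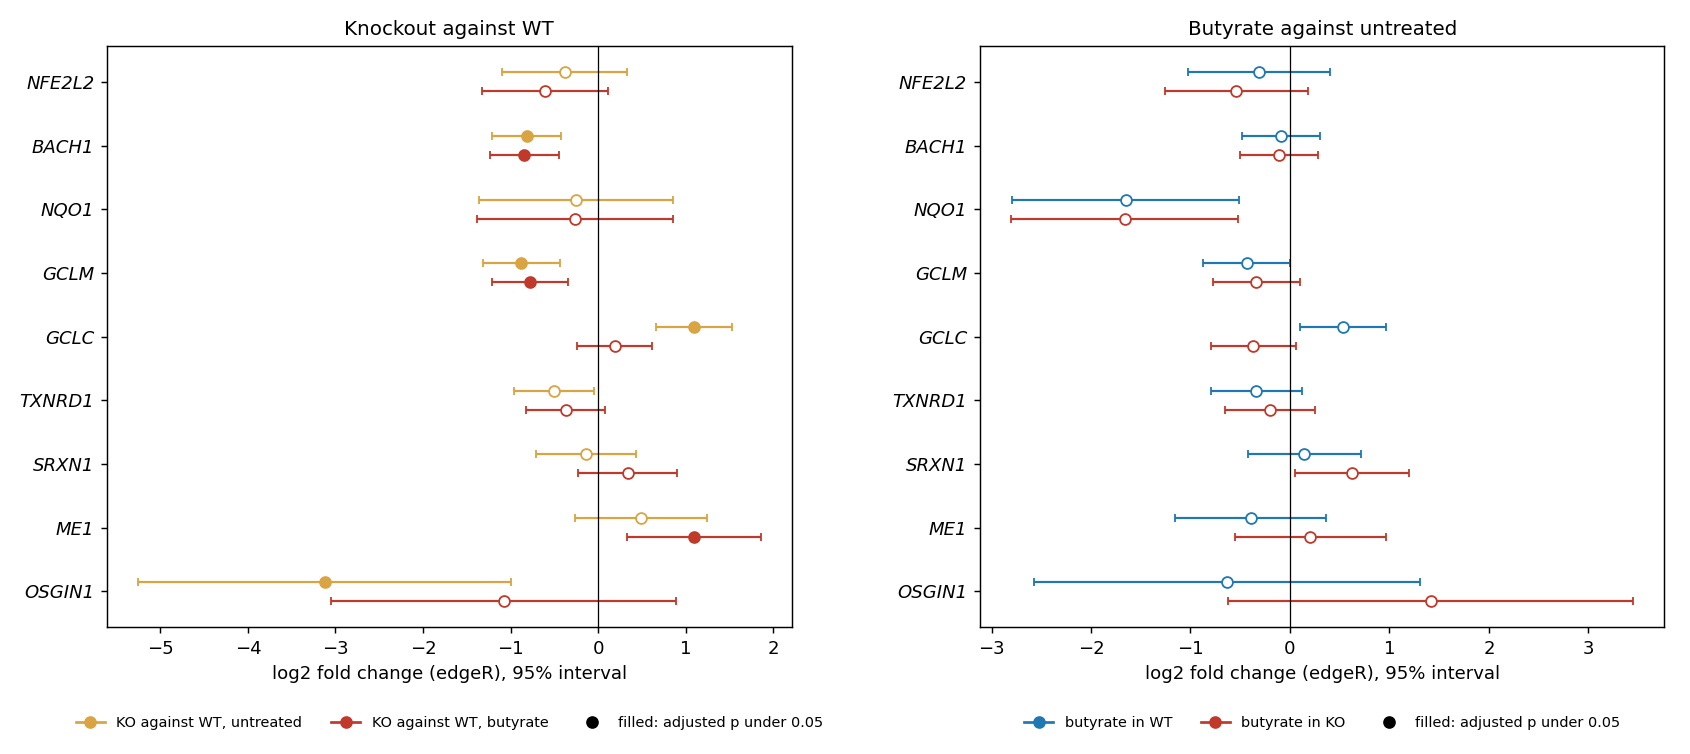
Log2 fold change of each gene with its 95% interval (edgeR), for knockout against WT on the left and butyrate against untreated on the right; filled points passed at an adjusted p under 0.05. BACH1 and GCLM lie below 0 for the knockout under both treatments, GCLC stands at 1.09 without and 0.19 with butyrate, and no butyrate difference is filled, although NQO1 stands at -1.65 and -1.66.

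Without the replicate block, butyrate left none of the 9 genes past the threshold in either genotype. With the block 1 of 9 passed in WT and 2 of 9 in KO. In WT, 0 of 9 passed by edgeR, against 2.35% of all genes, while 3 had an unadjusted p under 0.05 (18.0% of all genes did). With DESeq2 1 of 9 passed in WT, where 1331 of the 15805 tested genes did. In KO, 0 of 9 passed by edgeR against 3.40%, and 2 had an unadjusted p under 0.05 (19.8% of all genes did). With DESeq2 1 of 9 passed in KO, where 1538 of the 15805 did. Treated and untreated libraries were apart for 4 of 9 genes in each genotype, against 21.7% of all genes in WT and 24.4% in KO. With the replicate number as a block, NQO1 passed in both genotypes and OSGIN1 in KO, where 8.61% of all genes passed in WT and 11.7% in KO. The comparisons of butyrate and of genotype share libraries, so their values are not independent.

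NQO1 had the lowest fitted butyrate difference of the 9 genes in each genotype. All 3 treated libraries lay below all 3 untreated ones in WT and in KO, at levels given above. NQO1 was 3.14-fold lower in treated WT (log2 -1.65, SE 0.53) and 3.17-fold lower in treated KO (log2 -1.66, SE 0.53). The adjusted p was 0.12 and 0.11 by edgeR, 0.00051 and 0.00032 with the block, and 0.030 and 0.027 by DESeq2. Between same-numbered libraries the log2 difference was -1.64, -1.61 and -1.71 in WT and -1.58, -2.08 and -1.39 in KO.

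Neither ligase subunit passed for butyrate. GCLM lay lower in every treated library than in every untreated one of its genotype (log2 -0.44 and -0.34, adjusted p = 0.28 and 0.38). GCLC lay higher in each treated WT library than in each untreated one (log2 0.53, SE 0.20, adjusted p = 0.18), and same-numbered libraries differed by 0.63, 0.44 and 0.51. In KO, GCLC had a log2 difference of -0.37 (SE 0.20, adjusted p = 0.33), and same-numbered libraries differed by -0.32, -0.65 and -0.15. SRXN1 lay higher in every treated KO library than in every untreated one (log2 0.62, SE 0.26, adjusted p = 0.21), with pair differences of 0.62, 0.62 and 0.62. In WT the treated library numbered 1 lay above the untreated ones and the other two below them (log2 0.14, SE 0.26, adjusted p = 0.83).

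OSGIN1 had a log2 difference of -0.63 with butyrate in WT (SE 0.89, adjusted p = 0.77) and of 1.41 in KO (SE 0.94, adjusted p = 0.44). In KO the difference with the block was 1.63 (adjusted p = 0.042), with pair differences of 1.85, 1.92 and 1.00. NFE2L2 differed by log2 -0.31 in WT (adjusted p = 0.68) and -0.54 in KO (adjusted p = 0.40), where all treated libraries lay below all untreated ones. With the libraries numbered 1 left out, the NFE2L2 difference was -0.95 (adjusted p = 0.027) in WT and -0.85 (adjusted p = 0.037) in KO. TXNRD1 (-0.34 and -0.20), ME1 (-0.39 and 0.21) and BACH1 (-0.09 and -0.11) had log2 differences in WT and KO with adjusted p of 0.44 or more.

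**Figure D2:**
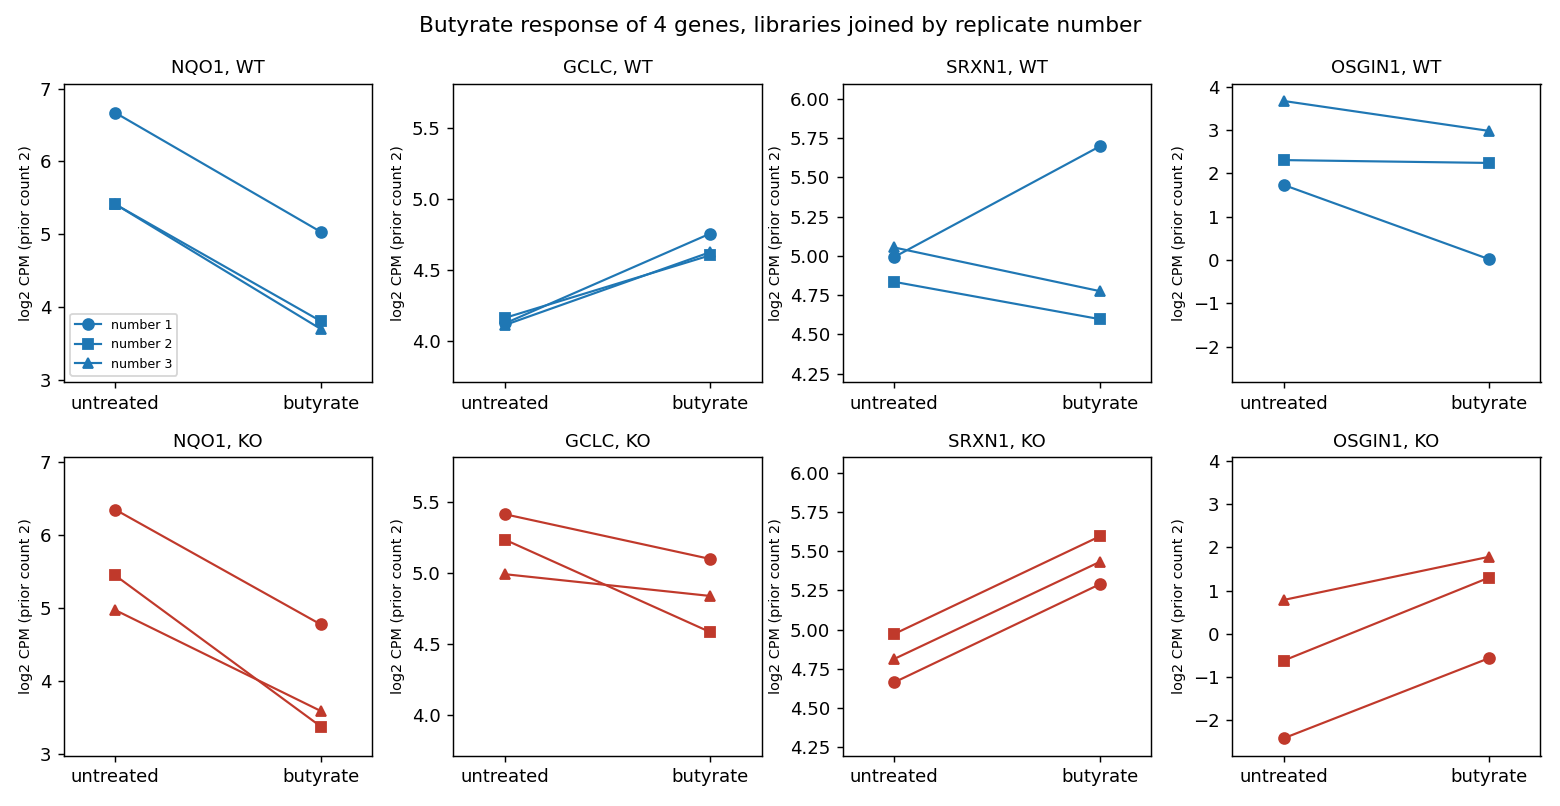
Log2 CPM (prior count 2) of NQO1, GCLC, SRXN1 and OSGIN1 in untreated and butyrate-treated libraries of each genotype, with lines joining libraries of the same number. Every NQO1 line slopes down in both genotypes, and the 3 SRXN1 lines of KO are nearly parallel. The GCLC and OSGIN1 lines go opposite ways in WT and KO, though the OSGIN1 line numbered 2 in WT is nearly flat.

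A difference of the butyrate response between genotypes was tested directly, and 0 of the 9 genes passed. By edgeR 0% of all genes passed, with 658 genes (4.16%) at an unadjusted p under 0.05. GCLC had an interaction of log2 -0.90 (SE 0.28, unadjusted p = 0.0070, adjusted p = 0.74), and adjusted p = 0.28 with the block. OSGIN1 had an interaction of 2.04 (SE 1.30, adjusted p = 1.00), and of 2.49 with the block (adjusted p = 0.21), and the others lay between -0.23 and 0.60. With DESeq2 0 of the 9 genes passed as well.

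Levels compared per exon length put TXNRD1 first and OSGIN1 last. In untreated WT the order was TXNRD1 at 36.8 ± 5.97 CPM per kb, GCLM at 21.0 ± 0.597, NQO1 at 19.1 ± 10.5, NFE2L2 at 13.9 ± 3.13, SRXN1 at 11.5 ± 0.890, BACH1 at 10.8 ± 1.00, ME1 at 7.31 ± 0.906, GCLC at 2.02 ± 0.0374 and OSGIN1 at 2.00 ± 1.46 (SD, n = 3). Neighbours in this order from GCLM to BACH1 did not differ beyond their spread, nor did GCLC and OSGIN1. In untreated KO, GCLC stood at 4.32 ± 0.627 CPM per kb and OSGIN1 at 0.223 ± 0.227, so these no longer lay together. TXNRD1 led in every group, at 25.9 ± 3.97 CPM per kb in untreated KO, 29.1 ± 4.55 in treated WT and 22.5 ± 4.08 in treated KO.

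Regulators and partners of the pathway were read from a list of 16 genes, all tested. In untreated KO against WT 2 were higher and 4 lower, where 11.7% of all genes were higher and 10.9% lower, at a median log2 difference of 0.26 against 0.02 for all genes. MAFK, a small MAF partner of both factors, was lower in KO (16.5 ± 1.34 against 8.82 ± 1.69 CPM, log2 -0.91, adjusted p = 0.013), a call lost without the untreated KO library numbered 2 (adjusted p = 0.052). MAFG, another small MAF, was lower by log2 -0.70 (adjusted p = 0.023), and NFE2, the erythroid relative of NRF2, by log2 -1.14 (adjusted p = 0.012). The NFE2 call was lost without the untreated WT library numbered 1 (adjusted p = 0.054), and the MAFG call lasted in 1 of 6 omissions of a library, at an adjusted p of up to 0.087. Higher in KO were RBX1, a subunit of the ligase that KEAP1 serves (log2 1.03, adjusted p = 0.020), and GSK3B, a kinase that marks NRF2 for degradation (log2 0.85, adjusted p = 0.018), which lasted in 3 and 2 of 6 omissions.

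With butyrate in both genotypes 2 of the 16 were higher and 3 lower, against 10.1% and 8.89% of all genes. MAFK was again lower (log2 -1.20, adjusted p = 0.0032), with any one library left out as well. MAFG was lower by log2 -0.69 (adjusted p = 0.029) and SQSTM1, which binds KEAP1, by log2 -1.33 (adjusted p = 0.019), calls that lasted in 2 and 3 of 6 omissions. KEAP1, the NRF2 adaptor, differed by -0.23 without butyrate (adjusted p = 0.81) and -0.19 with it (adjusted p = 0.86).

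Among other glutathione genes, 15 of 16 were tested, and 2 were higher and 4 lower in untreated KO, against 11.7% and 10.9% of all genes, at a median of 0.01. With the block 10 passed, against 33.0% of all genes. GSR, glutathione reductase, was lower (172.5 ± 9.26 against 71.4 ± 6.69 CPM, log2 -1.27, adjusted p = 0.00018), as were the transferases GSTK1 (log2 -1.22, adjusted p = 0.0018) and GSTM4 (log2 -1.29, adjusted p = 0.0060). The microsomal transferase MGST1 was higher (22.1 ± 4.74 against 70.9 ± 9.87 CPM, log2 1.69, adjusted p = 0.00064). These 4 calls lasted with any one library left out. With butyrate 3 were higher and 2 lower, against 10.1% and 8.89%. MGST1 (log2 1.52, adjusted p = 0.0017) and MGST2 (log2 1.77, adjusted p = 0.0017) were higher with any one library left out. GSTM3 was higher (log2 1.47) and GSR and GSTK1 lower (log2 -0.63 and -0.69), and each of these 3 calls lasted in 2 of 6 omissions.

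Of 13 genes of the thioredoxin and peroxiredoxin cycle, 1 was higher and 4 lower without butyrate (median -0.22), against 11.7% and 10.9% of all genes. PRDX1, a cytosolic peroxiredoxin, was higher (log2 0.81, adjusted p = 0.031), whereas the mitochondrial PRDX3 (log2 -0.60, adjusted p = 0.030) and PRDX6 (log2 -0.58, adjusted p = 0.029) were lower. TXNRD3 was lower at few counts, 16 to 86 in WT and 0 to 6 in KO libraries (adjusted p = 0.038), and the remaining lower gene was TXNL1 (adjusted p = 0.041). With butyrate 1 was higher and 3 lower (median -0.41), against 10.1% and 8.89%, and with the block 7 passed, against 29.2%. PRDX1 was again higher (log2 0.89), and TXNL1 (log2 -1.29), PRDX3 (log2 -0.64) and PRDX6 (log2 -0.60) were lower. None of these 9 calls lasted through every omission of one library: they held in 0 to 4 of 6.

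Of 11 tested genes of NADPH supply, 0 were higher and 2 lower in untreated KO, against 11.7% and 10.9% of all genes, at a median of -0.33. With the block 4 passed, against 33.0%. TALDO1, transaldolase, was among those lower (542.1 ± 63.9 against 158.2 ± 15.8 CPM, log2 -1.78, adjusted p = 3.1e-05). With butyrate 1 was higher and 2 lower, against 10.1% and 8.89%, at a median of -0.06. TALDO1 was again lower (log2 -1.23, adjusted p = 0.00059), and NNT, the mitochondrial transhydrogenase, was higher (log2 0.82, adjusted p = 0.0024). These TALDO1 and NNT calls lasted with any one library left out.

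Quinone and carbonyl detoxification had the lowest median of the lists, -1.50 without butyrate over 12 tested genes of 16, or -1.36 when a gene under the floor of 3 counts takes its bound. In it 0 were higher and 5 lower, against 11.7% and 10.9% of all genes, and all 5 calls lasted with any one library left out. AKR1B1, an aldose reductase, held 0 counts in all 6 KO libraries against 18.3 ± 4.72 CPM in untreated WT, at least 136.0-fold lower with 3 counts per library as the floor. CBR1, a carbonyl reductase, held 222, 82 and 272 counts in untreated WT and 0, 0 and 8 in untreated KO (adjusted p = 0.00090). Its fitted size is not given, since it rests on the 1 KO library with counts. BLVRB, biliverdin reductase B, was lower (437.3 ± 48.9 against 123.0 ± 33.5 CPM, log2 -1.83, adjusted p = 0.00034). AKR1C2 was lower as well (log2 -4.35, adjusted p = 3.1e-05), but its reads can be shared with near-identical copies such as AKR1C1. With butyrate 0 were higher and 5 lower again, against 10.1% and 8.89%, at a median of -0.76. Chromosome neighbours were read for the 9 genes of the set alone. Any local shift around AKR1B1 and the other list genes was not tested.

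Heme and iron genes known to answer to BACH1 had 6 of 7 members tested. In untreated KO 0 were higher and 2 lower (median -0.55), against 11.7% and 10.9% of all genes, and with butyrate 0 were higher and 4 lower (median -1.0), against 10.1% and 8.89%. FTL, the ferritin light chain, was lower in both (2777 ± 350.7 against 1129 ± 195.5 CPM without butyrate, log2 -1.30, adjusted p = 0.00059, and log2 -1.30, adjusted p = 0.00074, with it). BLVRA, biliverdin reductase A, was lower without butyrate (log2 -1.58, adjusted p = 0.0035) and with it (adjusted p = 0.042). FTH1, the ferritin heavy chain, was lower with butyrate (log2 -1.07, adjusted p = 0.013), and had a log2 difference of -0.64 without it (adjusted p = 0.10). FECH, ferrochelatase, was lower with butyrate (adjusted p = 0.042). The BLVRA and FECH calls with butyrate lasted in 1 and 3 of 6 omissions, and the other calls of this list in all 6. HMOX1, heme oxygenase 1 and the best known BACH1 target, held 0 to 5 counts in every library and was not tested.

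For butyrate against untreated, 3 of the 73 tested genes of the 6 lists passed in each genotype, or 4.11%, where 2.35% of all genes passed in WT and 3.40% in KO. With the block 9 passed in WT and 12 in KO, where 8.61% and 11.7% of all genes passed. In WT MGST1 fell by 1.27 on the log2 scale (adjusted p = 0.030), NNT fell by 0.90 (adjusted p = 0.013) and GLRX, glutaredoxin, rose by 2.28 (adjusted p = 0.036). In KO MGST1 fell by 1.44 (adjusted p = 0.015), SLC7A11, the cystine importer that feeds glutathione synthesis, fell by 2.91 (164.5 ± 62.6 against 21.9 ± 20.2 CPM, adjusted p = 0.020), and NFE2L3, an NRF2 relative, rose by 1.34 (adjusted p = 0.028). All 6 calls were lost with at least one library left out: SLC7A11 without the untreated or the treated KO library numbered 2 (adjusted p = 0.092 and 0.071), and NNT without the untreated or the treated WT library numbered 2 (0.061 and 0.072). The other calls lasted in 1 to 3 of 6 omissions.

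**Figure D3:**
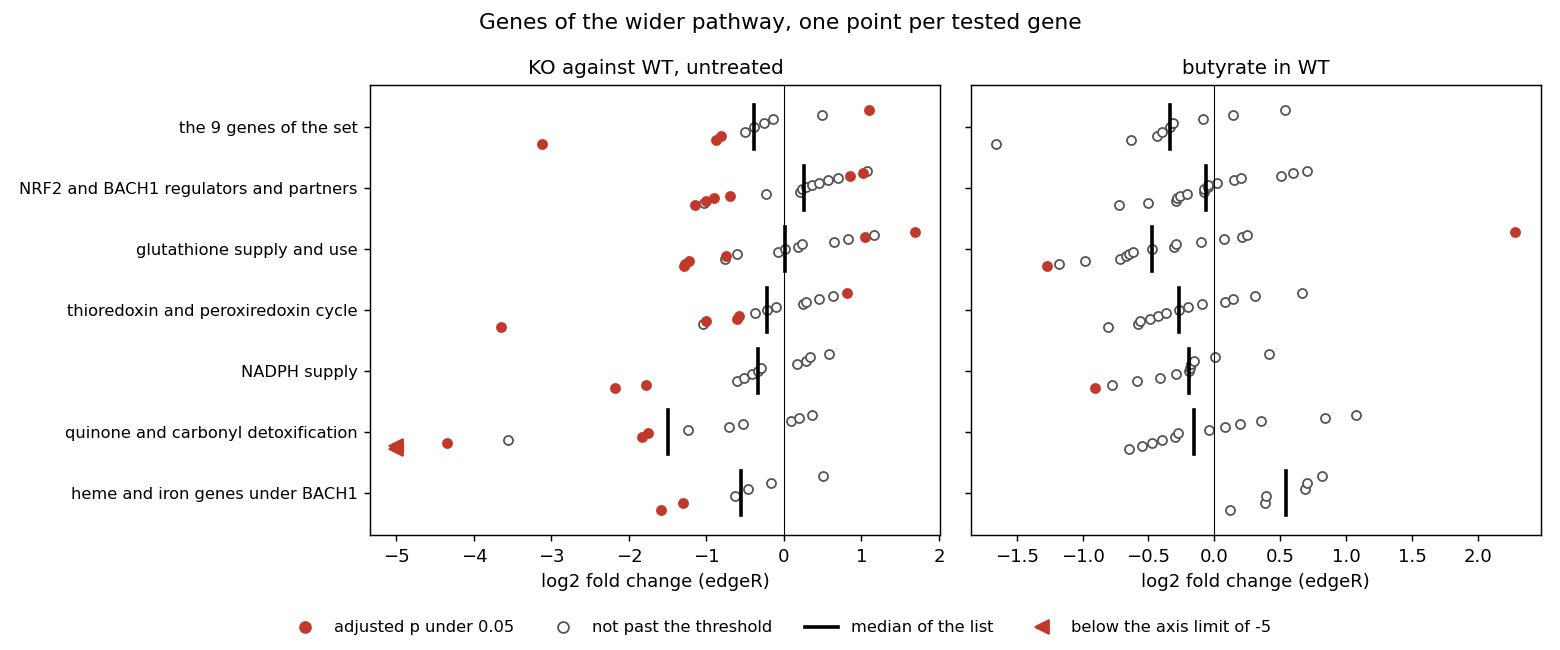
Log2 fold change (edgeR) of every tested gene of the 9-gene set and of the 6 wider lists, in untreated KO against WT (left) and in butyrate-treated against untreated WT (right). Filled points passed, bars mark medians, and arrowheads mark 2 genes below -5; the quinone and carbonyl list lies furthest left, at a median of -1.50, and 3 points are filled for butyrate.

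Likeness of pattern was measured as the root mean square difference of centred log2 CPM over the 12 libraries. The closest tested genes to NFE2L2 were MEIS2 (0.13), ATF1 (0.16) and ZNF282 (0.18), where NFE2L2 itself varied with an SD of 0.49. The closest to BACH1 were KBTBD2 (0.11), MAP3K4 (0.12) and NKRF (0.12), where BACH1 varied with an SD of 0.44. Within the set, BACH1 and GCLM were closest to each other, at 0.18. TXNRD1 and NFE2L2 were also nearest to GCLM, at 0.26 and 0.33. NQO1 was nearest to NFE2L2, but at 0.80, and OSGIN1 nearest to BACH1, at 1.49. This measure is not scaled to each gene's own spread. A gene that varies widely therefore lies far from genes that vary little, whatever its pattern.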

How the data were processed

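The deposited data were raw counts per gene symbol in 1 table covering 12 libraries. Per the submitters' processing notes, FastQC 0.12.1, STAR 2.7.11b and hg38 were used; the counting tool, annotation and strand setting are not given in the sources used here. Groups and replicate numbers came from the sample titles. Genes were filtered with filterByExpr (minimum count 10, 15805 kept), scaled by TMM and tested in one edgeR 4.0.16 quasi-likelihood fit of all 12 libraries (R 4.3.3, limma 3.58.1) with 5 contrasts and Benjamini-Hochberg adjustment over all tested genes, at a threshold of 0.05. The code was tested on simulated data. CPM use these TMM-scaled totals, and 3 counts, the detection limit, equal 0.0953 to 0.162 CPM. For single values an exact permutation test, two-sided, was run on log2 CPM (prior count 2). Intervals are 95% and rest on the fit. Gene positions and exon lengths are from GENCODE 29 (GRCh38), and neighbours were found for 14790 of 15805 tested genes.

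The labels give the same replicate numbers to the 4 groups. Over genes, deviations from group means of same-numbered libraries correlated at 0.195 to 0.409 for butyrate in WT and 0.147 to 0.468 for butyrate in KO. For genotype they correlated at 0.210 to 0.361 without butyrate and 0.315 to 0.595 with it. All lay above 0.1, so the numbers were taken to pair the libraries. Unlike-numbered libraries correlated at -0.439 to 0.186, -0.441 to 0.123, -0.288 to 0.069 and -0.512 to 0.343, in the same order. The highest of these, 0.343, exceeded the lowest same-numbered value of its contrast, so the pairing is less clear there. The fit with the number as a block is given where it changes a call of the 9 genes. Between genotypes it is also given where it moves a wider list's count of calls by over 1.5 times. For butyrate it is given for the 6 lists together, and no block value is given for single list genes. The alternatives were DESeq2 1.42.0, its size factors, library size alone, no filter, a stricter filter, the groups of one contrast only, the block, the libraries numbered 1 left out, and each library left out. The genes and lists were chosen with earlier results of these data known, so no p was adjusted over a list alone. The 9 genes are always named; list genes may be named if they pass in a contrast, at most 4 per list and contrast, with HMOX1, KEAP1 and small MAF genes in every case.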

Additional observations from a re-analysis of the deposited data

Results flagged for a closer look

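A gene of the set was flagged where its 3 pairs shared a sign within each of 2 matched contrasts and the signs were opposite, or where its interaction passed. The pair counts below therefore restate the rule, and its share over all genes was not computed. The butyrate difference of GCLC had opposite signs in the genotypes. By replicate number it was positive in 3 of 3 WT pairs and negative in 3 of 3 KO pairs, and the interaction was log2 -0.902 (adjusted p = 0.74 by edgeR). OSGIN1 had the opposite arrangement, negative in 3 of 3 WT pairs and positive in 3 of 3 KO pairs, with an interaction of log2 2.04 (adjusted p = 1.00). Neither interaction passed, so a difference between genotypes is not shown for either gene. OSGIN1 rests on as few as 2 counts in a library, and its WT pair numbered 2 differed by only log2 -0.066.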

How the results depend on the processing

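Genes of the set past the threshold in untreated KO against WT numbered 4, and 3 to 4 with one library left out; with butyrate 3, 1 (BACH1) with only those groups fitted and 1 to 3 with one library left out. For butyrate they numbered 0 in WT and 0 in KO: without the libraries numbered 1 the counts were 2 and 2, by DESeq2 1 and 1, with the replicate block 1 and 2, and 0 to 1 in each with one library left out. The interaction count was 0 of 9 under every setting run. Over all genes, butyrate called 372 in WT (1884 without the libraries numbered 1, 1331 by DESeq2, 63 with those groups alone, 1361 with the block, 43 to 1243 with one library left out) and 537 in KO (2164 without the libraries numbered 1, 304 with the stricter filter, 1538 by DESeq2, 1852 with the block, 48 to 833). The genotype counts were 3574 untreated (2334 with the stricter filter, 5217 with the block, 2485 to 2844) and 3009 with butyrate (1947 with the stricter filter, 1802 with those groups alone, 4612 with the block, 2014 to 3477). The interaction called 0 (9 without the libraries numbered 1, 1 with the stricter filter, 86 by DESeq2, 2 without a filter, 3 with the block, 0 to 2).

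Several small log2 differences changed sign, and the cause was not tested. Library size alone gave 0.0034 for BACH1 with butyrate in KO, and interactions of 0.10 for BACH1 and 0.14 for NQO1. Without the libraries numbered 1, SRXN1 stood at -0.27 with butyrate in WT, and the interactions of BACH1 and NFE2L2 at 0.011 and 0.11. The NQO1 interaction was 0.018 with the stricter filter, 0.017 with DESeq2 size factors and 0.017 by DESeq2. With one library left out the ranges crossed 0: BACH1 (-0.25 to 0.021), OSGIN1 (-1.31 to 0.15) and SRXN1 (-0.29 to 0.34) with butyrate in WT, ME1 (-0.36 to 0.50) with butyrate in KO, NQO1 between genotypes (-0.73 to 0.29 untreated and -0.83 to 0.28 with butyrate), and the interactions of BACH1 (-0.14 to 0.14), GCLM (-0.060 to 0.28), NFE2L2 (-0.45 to 0.33) and NQO1 (-0.58 to 0.58). The block changed the call of NQO1 and OSGIN1 for butyrate, as given above. Library size alone moved the median of all genes by 0.12 for butyrate in KO and 0.11 for the interaction. The depth limits OSGIN1 most, at 2 to 377 counts.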
